A study of Homo sapiens with 8 samples.

Results

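Actin genes were measured in human dopaminergic neurons made from induced pluripotent stem cells. The 10 genes encode 3 actins (ACTB, ACTG1, ACTA2), the cofilins CFL1 and CFL2, the profilins PFN1 and PFN2, the beta-thymosins TMSB4X and TMSB10, and drebrin (DBN1). They were taken by gene symbol from a table of raw counts that lists 58395 genes. All 10 were found, and all 10 passed the filter on low counts that left 19999 genes for testing. The neurons were iCell DopaNeurons, a commercial product of Cellular Dynamics. They grew on coverslips whose coating mimics the neurotrophic factor GDNF (group GDNF, 4 libraries) or belonged to the comparator (group CT, 4 libraries). Both groups were collected on day 4 after 1 change of medium on the day after seeding, and both carry the treatment label 10.73 mM. The series names a scrambled version of the mimic as comparator, and CT, which the labels do not spell out, is taken to be that version. The design text of the series speaks of 3 biological replicates, and each group here has 4 libraries. Nothing says that they came from separate cultures, so the p-values rest on the spread among these libraries alone, and part of that spread may be technical.

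Actin exists as single molecules and as filaments that grow at one end and shrink at the other. In a neuron the filaments push the edge of the growth cone forward, shape dendritic spines and form rings along the axon. Beta-thymosins hold actin monomers in reserve, profilins hand them to growing filament ends, cofilins cut and shorten old filaments, and drebrin binds along filaments in growth cones and spines.

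The members include pairs of close relatives, and a read is assigned to one of a pair only through the bases that differ. ACTB (chromosome 7:5527147-5563784, minus strand) and ACTG1 (chromosome 17:81509971-81523847, minus strand; both GRCh38) encode the cytoplasmic beta and gamma actins. Their coding sequences of 1128 bases were 91.2% identical, with 99 differing bases and a longest identical run of 59 bases. The first 90 coding bases are shown because they hold 17 of those differences, which are in capitals.
ACTB: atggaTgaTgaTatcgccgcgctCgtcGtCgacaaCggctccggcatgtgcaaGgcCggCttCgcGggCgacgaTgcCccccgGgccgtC
ACTG1: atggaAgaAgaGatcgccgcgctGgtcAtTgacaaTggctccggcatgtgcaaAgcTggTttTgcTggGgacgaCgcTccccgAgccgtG

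TMSB10 (chromosome 2:84905625-84906675, plus strand) and TMSB4X (chromosome X:12975108-12977227, plus strand) were less alike, with 72.6% identity over 135 coding bases. Their whole coding sequences are shown with the 37 differing bases in capitals. The third line is TMSB10P1, a processed pseudogene on the minus strand of chromosome 2, shown because it is a near copy of TMSB10 that itself received reads. Its 6 substitutions against TMSB10 are in capitals, and it lacks 3 bases of the TMSB10 sequence. All 5 sequences were read from the GENCODE 29 transcripts.
TMSB10: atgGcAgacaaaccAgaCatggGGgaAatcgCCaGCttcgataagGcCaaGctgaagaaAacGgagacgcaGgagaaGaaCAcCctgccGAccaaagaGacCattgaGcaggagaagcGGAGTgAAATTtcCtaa
TMSB4X: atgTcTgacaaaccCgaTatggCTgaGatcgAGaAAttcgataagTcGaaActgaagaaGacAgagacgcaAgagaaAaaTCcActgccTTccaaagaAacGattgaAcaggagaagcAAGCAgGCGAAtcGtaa
TMSB10P1: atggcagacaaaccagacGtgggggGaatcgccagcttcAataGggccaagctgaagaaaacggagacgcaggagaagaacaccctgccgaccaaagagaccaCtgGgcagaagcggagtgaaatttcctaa

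The cofilins CFL1 and CFL2 shared 70.1% of 501 coding bases and the profilins PFN1 and PFN2 60.3% of 423, with longest identical runs of 11 and 9 bases. Annotated pseudogenes named after a member held reads amounting to 8.76% of the PFN1 counts, 7.34% of the TMSB10 counts, 3.42% for ACTB, 3.01% for ACTG1, 2.86% for TMSB4X and 2.29% for CFL1. TMSB10P1 alone held 7.05% of the TMSB10 counts. CFL2, PFN2, ACTA2 and DBN1 have no pseudogene named after them in the annotation. How reads with several matching places were counted is not given in the sources used here, so levels of the genes with copies are uncertain, and these shares do not measure by how much. Nor is the use of strand given: exons on the other strand overlap 30.1% of the ACTA2 exon bases, 19% of those of CFL1, 5.59% of PFN1, 2.62% of TMSB10 and 1.62% of PFN2, while 0.755% of PFN2 overlaps a gene on its own strand.

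The 8 libraries held 28698283 to 34559240 counts. Levels are given in CPM, counts scaled to the size of each library. A gene without counts in a library could be present there at up to 0.0856 to 0.104 CPM (3 counts in that library; this covers counting error alone). The dopaminergic neuron markers were present in every library, 10 of 10 tested, with summed levels of 7054 to 8198 CPM in CT and 7707 to 8190 CPM in GDNF. Most of this sum came from MAP2 and STMN2, genes of neurons in general, which averaged 2977 and 2796 CPM over all libraries. The other markers averaged from 17.5 CPM (SLC18A2) to 812 CPM (LMX1B). TH, which makes the precursor of dopamine, lay between 165.7 and 325.5 CPM. Of the markers of other cells, the 6 progenitor genes, 5 of them tested, summed to 465.7 to 567.6 CPM in CT and 445.1 to 606.9 CPM in GDNF. The 6 astrocyte genes, 5 of them tested, summed to 3.72 to 6.02 CPM and 3.58 to 5.09 CPM. Most of the progenitor sum came from VIM and NES, which averaged 310 and 188 CPM over all libraries. The other progenitor and cycling genes were low, with SOX2 at 6.92, TOP2A at 1.36, MKI67 at 1.12 and HES5 at 0.174 CPM. No listed marker was at 0 in all libraries. CT replicate 2 differed from the other CT libraries along the GC content of genes. Its median log2 difference from them was -0.95 in the quartile of genes with the lowest GC content and 0.61 in the quartile with the highest. GDNF replicate 4 had a smaller trend in the same direction, with -0.31 and 0.21 against the other GDNF libraries. Each member's result is given with and without CT replicate 2. In bulk samples, fewer cells of a type and less RNA per cell cannot be told apart.

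Both cytoplasmic actins and TMSB10 were among the most abundant mRNAs of these neurons, while the other members ranged down to ACTA2 at rank 17749 of the 19999 genes tested. ACTG1, the third most abundant gene tested, averaged 5194 CPM over the 8 libraries, ACTB, the fifth, 4757 CPM, and TMSB10, at rank 18, 2227 CPM. The 10 genes together took 1.48% ± 0.227 of all counts in CT and 1.38% ± 0.107 in GDNF (SD, n = 4 each). ACTB and ACTG1 alone took 1.02% ± 0.162 and 0.963% ± 0.0913. The share of the 10 genes was 1.29%, 1.77%, 1.57% and 1.31% in CT replicates 1 to 4 and 1.30%, 1.28%, 1.48% and 1.47% in GDNF replicates 1 to 4. CT replicate 2 held the highest share, and the groups overlapped.

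**Figure D1:**
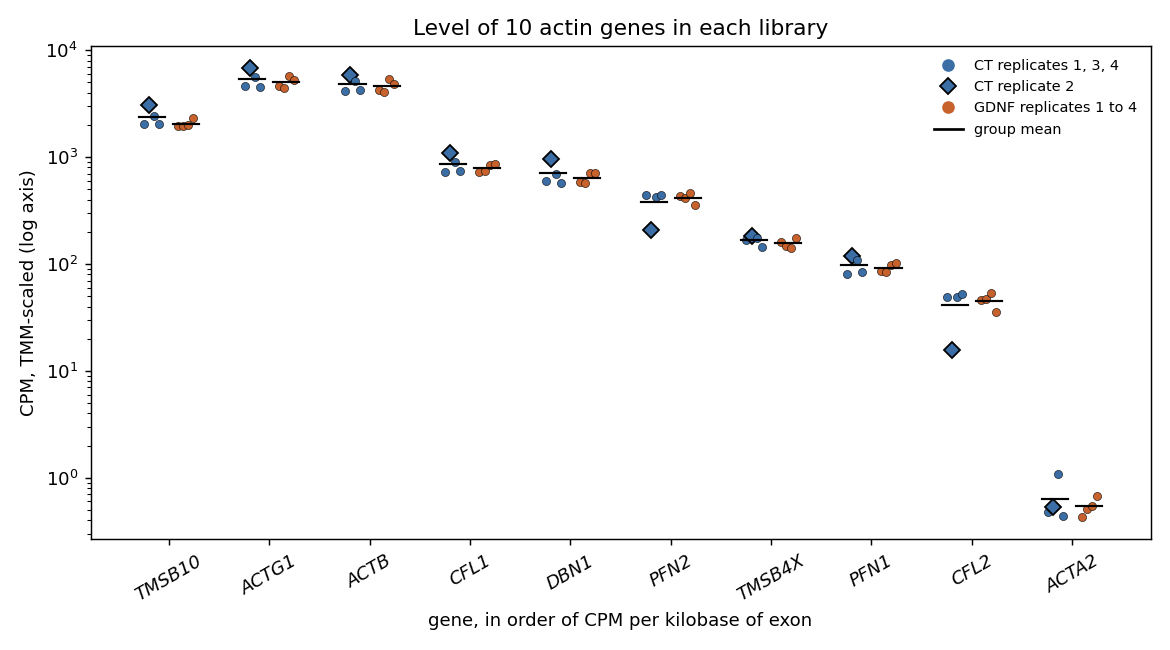
Level of each of the 10 actin genes in CPM (log axis) in every library, with CT in blue, GDNF in orange and group means as lines; genes are in order of their level per kilobase. In CFL2 and PFN2 the diamond of CT replicate 2 (15.5 and 207 CPM) lies below the other 7 libraries, while in ACTB, ACTG1, CFL1, TMSB10 and DBN1 it lies above them, as it does in PFN1 and TMSB4X.

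Per kilobase of annotated exon the genes spanned more than 4 orders of magnitude. TMSB10 was highest with 4491 CPM per kilobase, ahead of ACTG1 with 1735 and ACTB with 1352. A middle group followed, with CFL1 at 141.6, DBN1 at 132, PFN2 at 107 and TMSB4X at 94.7 CPM per kilobase. PFN1 came next with 47.9, then CFL2 with 6.05 and ACTA2 with 0.196 CPM per kilobase. Each gene was above the next in all 8 libraries, except that CFL1 was above DBN1 in 7, DBN1 above PFN2 in 4 and PFN2 above TMSB4X in 6, so the order among these 4 genes is within the spread of the libraries. ACTB and ACTG1 changed places when the length of the principal transcript was used instead, with 2476 and 2302 CPM per kilobase, and their order therefore depends on the length taken. Compared within pairs, the neurons had more CFL1 than CFL2, more PFN2 than PFN1 in 7 of 8 libraries, and more TMSB10 than TMSB4X per kilobase.

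The question of the comparison is which genes differ between neurons on the GDNF mimic and on its comparator. No actin gene did at a false discovery rate of 0.05. Of all 19999 genes, 0 passed in edgeR's quasi-likelihood test (percentage called 0), with 176 at an unadjusted p below 0.05 (0.88%); DESeq2's Wald test also called 0, with 151 at an unadjusted p below 0.05, and limma-voom called 0, with 837. None of the 10 genes was among the 176. None had groups that did not overlap in CPM before correction for GC content, against 0.93% of all genes tested. Of the 10 genes, 2 had a positive log2 fold change (GDNF over CT) and 8 a negative one, with a median of -0.10 against -0.0098 over all genes tested. Without CT replicate 2 the same counts were 5 and 5, with a median of -0.022. With offsets for GC content and length they were 4 and 6, with a median of -0.017.

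Beta-actin and gamma-actin, the filament-forming actins of non-muscle cells, overlapped in level between the coatings. ACTB was at 4188, 5921, 5158 and 4242 CPM in CT replicates 1 to 4 and at 4236, 4095, 5382 and 4838 CPM in GDNF replicates 1 to 4. CT replicate 2 was the highest and GDNF replicate 2 the lowest, and the groups overlapped over most of their range. The means were 4877 ± 826 CPM in CT and 4638 ± 592 CPM in GDNF (SD, n = 4 each), a log2 fold change of -0.073 with a 95% confidence interval of -0.38 to 0.24. ACTG1 was at 4640, 6775, 5578 and 4563 CPM in CT and at 4587, 4447, 5702 and 5259 CPM in GDNF. The libraries stood in nearly the same order as for ACTB, with CT replicate 2 highest and GDNF replicate 2 lowest. The log2 fold change of ACTG1 was -0.11 (-0.43 to 0.21), from 5389 ± 1033 to 4999 ± 588 CPM. In edgeR's quasi-likelihood test the adjusted p was 0.9999 for both, as for each of the other 8 genes. Both signs turned without CT replicate 2, to 0.038 for ACTB and 0.025 for ACTG1, with intervals of -0.19 to 0.27 and -0.20 to 0.25.

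The balance of the cytoplasmic actins had the smallest spread among the 4 ratios. The ratio of ACTB to ACTG1 counts was 0.903, 0.874, 0.925 and 0.930 in CT and 0.924, 0.921, 0.944 and 0.920 in GDNF. It was lowest in CT replicate 2 and highest in GDNF replicate 3, and the groups overlapped. The mean log2 ratio was -0.14 ± 0.041 in CT and -0.11 ± 0.018 in GDNF, a difference of 0.031 (two-sided exact permutation test over libraries, p = 0.286, adjusted p = 0.743 over the 4 pairs compared), and it was 0.013 without CT replicate 2. The smallest p that 4 against 4 libraries allow is 0.0286. The reads that tell the genes apart are those over differing bases, such as the ones printed above, and over the untranslated regions.

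ACTA2, the actin of vascular smooth muscle and of contractile fibroblasts, was the lowest of the 10 genes, with few counts in every library. It had 15, 16, 31 and 14 counts in CT and 15, 18, 16 and 20 in GDNF, which is 0.475, 0.532, 1.07 and 0.441 CPM and 0.428, 0.515, 0.538 and 0.676 CPM. CT replicate 3 was the highest, and the remaining CT libraries lay within or close to the range of GDNF. The log2 fold change was -0.22 with an interval from -1.01 to 0.56. It was -0.29 (-1.13 to 0.55) without CT replicate 2 and 0.15 (-0.56 to 0.86) without CT replicate 3. The counts do not tell apart the fold changes within these intervals. FAS and ACTA2-AS1 lie on the other strand over part of its exons. They had 0 to 19 and 4 to 20 counts per library, as few as ACTA2 itself.

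Markers of cells that carry much ACTA2 were low but present. Of 12 mural, smooth muscle and fibroblast markers 9 were tested, and the summed level of all 12 was 62.2 to 94.8 CPM in CT and 71.9 to 88.7 CPM in GDNF. The sum was highest in CT replicate 2, not in CT replicate 3, which had 62.6 CPM. Most of it came from collagens: COL1A1, the largest, averaged 26.0 CPM, while the defining smooth muscle genes MYH11 and DES averaged 0.127 and 0.198 CPM and TAGLN 7.61 CPM. The part of such cells in the ACTA2 counts was not tested. The muscle actins had similarly low levels, with 2.49 CPM for ACTG2, 0.815 for ACTA1 and 0.399 for ACTC1, and the 6 striated muscle markers, 3 of them tested, summed to 14.5 to 22.0 CPM in CT and 15.6 to 17.8 CPM in GDNF. Most of this sum came from MYH7, which averaged 15.3 CPM over all libraries, while CKM, the next highest, averaged 0.724 CPM.

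CFL1, the non-muscle cofilin, was the main cofilin of these neurons. It was at 724, 1105, 908 and 737 CPM in CT and at 729.9, 734, 837 and 868 CPM in GDNF. Again CT replicate 2 was the highest, and the remaining CT libraries lay in the range of GDNF or just beside it. With means of 869 ± 179 and 792 ± 70.6 CPM, its log2 fold change was -0.13 (-0.46 to 0.20). Without CT replicate 2 the value was 0.0087 (-0.21 to 0.23).

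CFL2, known as the muscle cofilin but also made in neurons, had the largest spread among the 10 genes before correction for GC content. It was at 49.3, 15.5, 48.9 and 52.6 CPM in CT and at 45.7, 47.4, 53.0 and 35.3 CPM in GDNF. CT replicate 2 was far below the others, and GDNF replicate 4 was the next lowest. The log2 fold change of 0.13 (-0.56 to 0.81) became -0.14 (-0.40 to 0.11) without CT replicate 2, so this library set its sign. The SD of log2 CPM within groups was 0.62, larger than that of 97.4% of the 11820 genes with a mean of at least 5 CPM. Its transcript had the lowest GC content of the 10, at 37.7%, and after correction for GC content and length the SD was 0.26, below that of ACTA2 at 0.37.

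The ratio of CFL1 to CFL2 counts set 2 libraries apart from the rest. It was 14.7, 71.1, 18.6 and 14.03 in CT and 15.96, 15.5, 15.8 and 24.6 in GDNF. CT replicate 2 was far above all others, with GDNF replicate 4 second. The log2 difference of GDNF from CT was -0.38 (exact permutation p = 0.743, adjusted p = 0.743), and 0.17 without CT replicate 2. After correction for GC content and length the ratio was 28.0 in CT replicate 2 and 16.2 to 20.4 in the other 7 libraries.

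Among the profilins, PFN2, the form enriched in brain, exceeded PFN1, the form found in nearly all tissues. PFN1 was at 80.8, 119.6, 109 and 83.9 CPM in CT and at 85.3, 83.3, 98.4 and 101.9 CPM in GDNF. PFN2 was at 443, 207, 424 and 444 CPM in CT and at 429, 413, 467 and 356 CPM in GDNF. CT replicate 2 was the highest library for PFN1 and the lowest for PFN2. The log2 fold change was -0.091 (-0.43 to 0.25) for PFN1 and 0.13 (-0.35 to 0.61) for PFN2, and without CT replicate 2 it was 0.021 (-0.23 to 0.28) and -0.066 (-0.26 to 0.13). Per count, PFN1 stood to PFN2 as 0.182, 0.577, 0.256 and 0.189 in CT and as 0.199, 0.202, 0.211 and 0.286 in GDNF. The log2 difference of this ratio was -0.27 (exact permutation p = 0.714, adjusted p = 0.743) and turned to 0.10 without CT replicate 2. Corrected for GC content and length, the ratio in CT replicate 2 was 0.276 and in the others 0.215 to 0.261.

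TMSB10 was the most abundant thymosin of these neurons. TMSB10 was at 2022, 3065, 2440 and 2041 CPM in CT and at 1967, 1950, 2008 and 2326 CPM in GDNF. Of the CT libraries, 4 of 4 lay above 3 of 4 GDNF libraries. GDNF replicate 4 lay inside the range of CT, so the groups overlapped before correction for GC content. With means of 2392 ± 488 and 2063 ± 177 CPM, its log2 fold change was -0.21 (-0.53 to 0.11). The value was -0.067 (-0.27 to 0.14) without CT replicate 2 and -0.095 (-0.20 to 0.011) with offsets for GC content and length. Corrected for GC content and length, TMSB10 was at 2190, 2475, 2219 and 2225 CPM in CT and at 2136, 2144, 2066 and 2182 CPM in GDNF. The corrected groups did not overlap, with 2182 and 2190 CPM as the nearest values. The share of all genes without overlap after this correction was not counted. The near copy TMSB10P1 printed above is part of the uncertainty of these levels.

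TMSB4X, which sequesters actin monomers in many cell types, had an SD of log2 CPM within groups of 0.15, and of 0.11 after correction for GC content and length. It was at 166.5, 181, 176.5 and 144.3 CPM in CT and at 160.4, 146.4, 140.5 and 176.4 CPM in GDNF. The highest library, by a small margin, was CT replicate 2. The log2 fold change was -0.10 (-0.37 to 0.17), and -0.053 (-0.28 to 0.17) without CT replicate 2. The ratio of TMSB10 to TMSB4X counts was 12.2, 16.9, 13.8 and 14.1 in CT and 12.3, 13.3, 14.3 and 13.2 in GDNF, with CT replicate 2 highest. Its log2 difference was -0.096 (exact permutation p = 0.457, adjusted p = 0.743), and -0.010 without CT replicate 2.

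DBN1 was at 596, 965, 701 and 572 CPM in CT and at 587, 567, 704 and 713 CPM in GDNF. It had the highest GC content of the 10 genes, 63.4%, and CT replicate 2 was its highest library. With means of 709 ± 180 and 643 ± 76.6 CPM, the log2 fold change of drebrin was -0.14 (-0.52 to 0.24). Without CT replicate 2 it was 0.049 (-0.18 to 0.28). After correction for GC content and length the libraries lay between 640 and 714 CPM, and the SD of log2 CPM within groups was 0.27 before and 0.046 after it. The corrected SD stood at percentile 4.06 of the genes with at least 5 CPM.

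The deviation of CT replicate 2 followed the GC content of the member. Its log2 difference from the other CT libraries was -1.69 for CFL2 (GC content 37.7%) and -1.08 for PFN2 (41.6%). It was -0.18 for ACTA2, 0.16 for TMSB4X, 0.51 for TMSB10, 0.39 for ACTB, 0.49 for CFL1, 0.47 for ACTG1 and 0.41 for PFN1, whose GC contents lie between 51.8% and 58.5%. The largest positive value was 0.64, for DBN1. The medians over all genes with at least 5 CPM were -0.95, -0.31, 0.30 and 0.61 from the lowest to the highest quartile of GC content. CFL2 lay below the median of its quartile, and DBN1 lay close to that of its own. GDNF replicate 4 also had its lowest values for CFL2 and PFN2, with -0.46 and -0.29, while the other 8 members were above the mean of the rest of its group. Its medians over all genes with at least 5 CPM were -0.31, -0.082, 0.088 and 0.21 from the lowest to the highest quartile.

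**Figure D2:**
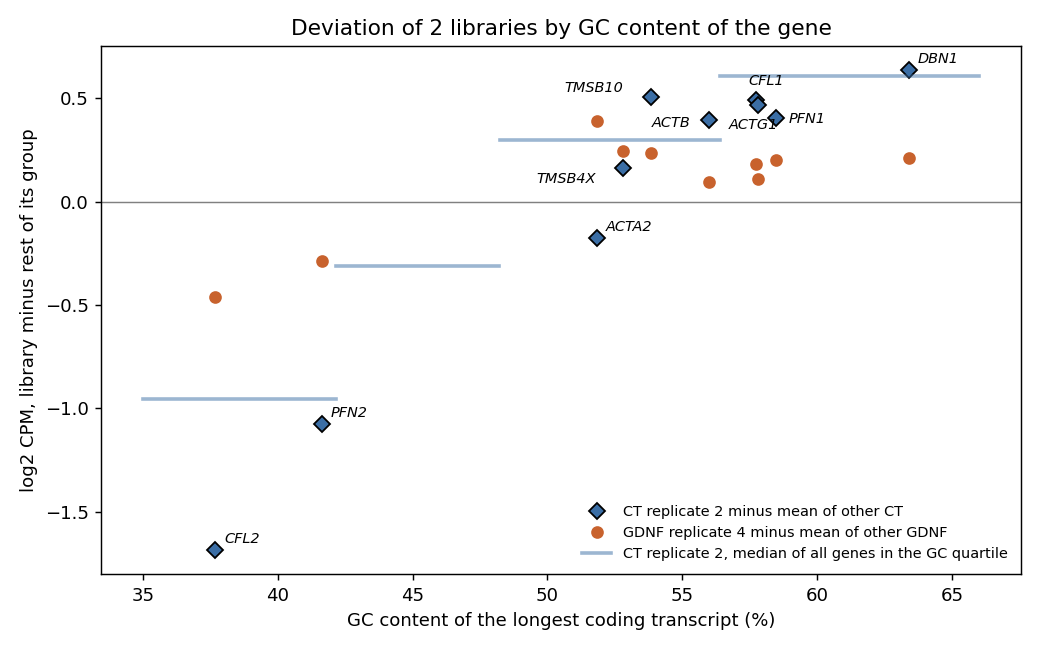
Log2 deviation of CT replicate 2 (diamonds) and GDNF replicate 4 (circles) from the rest of their group for each member, against the GC content of its transcript in percent; horizontal bars are the medians of CT replicate 2 over all genes in each GC quartile, drawn only within the plotted range. CFL2 and PFN2 sit at -1.69 and -1.08 for CT replicate 2, and DBN1 at 0.64.

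The intervals give the range of fold changes that the data leave possible for each gene. For 7 of the 10 genes the 95% confidence interval lay within 1.5-fold in either direction, and for 9 within 2-fold, with ACTA2 the exception. Without CT replicate 2 both counts were 9, and with offsets for GC content and length they were 9 and 10. Leaving out any other single library gave 5 to 7 genes within 1.5-fold and 8 or 9 within 2-fold. Without CT replicate 4 the counts were 5 and 8, and the widest bound outside ACTA2 was 2.005-fold. For ACTB the interval ran from 0.767-fold to 1.18-fold and for ACTG1 from 0.742-fold to 1.16-fold.

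**Figure D3:**
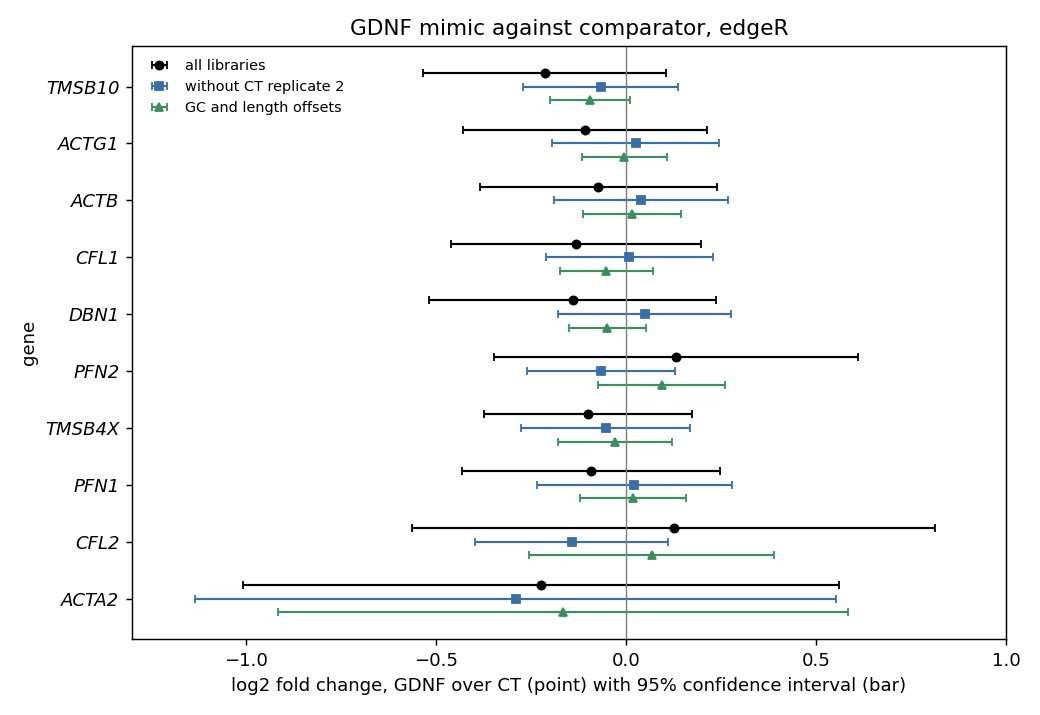
Log2 fold change (GDNF over CT) of the 10 genes with 95% confidence intervals from edgeR, for all libraries (circles), without CT replicate 2 (squares) and with GC and length offsets (triangles). All intervals include 0, and ACTA2 has the widest, from -1.01 to 0.56 with all libraries.

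Genes whose level went up and down with a member across the 8 libraries were sought among the 11819 others with at least 5 CPM, by the smallest SD of the log2 ratio. For ACTB these were NIPSNAP1 (SD 0.029), NKAIN1 (0.032) and KIAA0930 (0.033), with ACTG1 at rank 4 and 0.033, against a median SD of 0.25 over all genes. For CFL1 they were RPL28 (0.0092), PI4KB (0.023) and CCM2 (0.025). For DBN1 they were IGLON5 (0.016), GPR137 (0.020) and RUNDC3A (0.022). These likenesses rest on 8 libraries that differ along GC content, and the genes named have GC contents of 51.6% to 63.5%, near those of the members they follow. Corrected for GC content and length, the SDs in the same order were 0.0409, 0.0310 and 0.1029 for ACTB and 0.0409, 0.0460 and 0.0427 for CFL1. For DBN1 they were 0.0335, 0.0166 and 0.0209. The genes were picked as the smallest of 11819 values, and counting error was not set against them, so no shared regulation can be read from them. Against ACTB, CFL2 stood at rank 11415 and PFN2 at rank 10015 of the 11819 genes, with SDs of 0.74 and 0.53.

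None of the other listed genes of the actin pathway passed the test. Of 130 listed genes 123 were tested, of which 48 had a positive and 75 a negative log2 fold change, 0 passed, and the median was -0.041 against -0.0098 over all genes. Without CT replicate 2 the median was 0.020, and with offsets for GC content and length it was -0.0081. In the cofilin cycle, which holds the kinases and phosphatases of cofilin and its helpers, the fold change was above 0 on the log2 scale for 4 of 15 genes and below it for 11. WDR1, which helps cofilin take filaments apart, was the highest per kilobase, with 368 ± 76.8 and 339 ± 23.2 CPM. SSH3, a cofilin phosphatase, had the smallest p, with 1.08 ± 0.208 and 0.783 ± 0.258 CPM and overlapping groups.

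Among actin and monomer relatives the log2 fold change was positive for 3 of 6 tested genes, and its median was 0.040. TMSB15A, a further thymosin, averaged 69.1 ± 27.5 CPM on CT coverslips and 66.2 ± 8.44 CPM on the mimic. PFN4, a testis profilin, had the smallest p of the tested genes in the actin pathway lists. PFN4 averaged 1.07 ± 0.450 CPM on CT coverslips and 1.59 ± 0.165 CPM on the mimic, a log2 fold change of 0.58 (-0.036 to 1.197). This value was 0.91 without CT replicate 3 and 0.44 to 0.62 without any other single library (adjusted p from edgeR's quasi-likelihood test 0.922 to 1 over the 8 fits). The CT libraries of PFN4 were at 0.886, 0.732, 1.73 and 0.914 CPM, and CT replicate 3 lay inside the range of GDNF. Outside these lists, the progenitor and cycling marker TOP2A had a smaller unadjusted p, 0.041 in edgeR's quasi-likelihood test. Its log2 fold change was 0.85 (0.042 to 1.67), and it did not pass the false discovery rate either.

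Filament nucleators gave no call. In the Arp2/3 complex, which starts branches on filaments, 3 of 10 genes were higher and 7 lower. Its subunit ARPC2 was at 275 ± 14.04 and 277 ± 12.5 CPM, and ARPC1A, which shares 58.4% of its exon bases with a same-strand gene, at 29.3 ± 6.52 and 24.95 ± 2.08 CPM. In the WAVE and WASP list, whose products switch on that complex, 5 of 10 were higher, with BRK1 at 110.2 ± 12.5 and 107 ± 5.44 CPM and WASF2 at 38.7 ± 3.23 and 35.5 ± 0.788 CPM. Formins and Ena/VASP proteins, which lengthen unbranched filaments, gave 8 higher and 7 lower of 15, and the Ena/VASP member EVL was at 725 ± 172 and 695 ± 53.2 CPM. INF2, a formin, was at 22.7 ± 6.13 and 20.2 ± 1.44 CPM.

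Filament bundlers and neuronal filament binders had negative medians with all libraries and positive ones without CT replicate 2. With offsets for GC content and length the medians stayed negative, at -0.036 and -0.0081. Of 10 bundling and crosslinking genes 2 were higher and 8 lower (median -0.12, and 0.066 without CT replicate 2). Fascin, FSCN1, which bundles the filaments of filopodia, was at 723 ± 181 and 667 ± 137 CPM, and plastin 3, PLS3, at 6.03 ± 2.37 and 7.48 ± 0.261 CPM. Of 17 neuronal filament binders 4 were higher and 13 lower (median -0.047, and 0.052 without CT replicate 2). MARCKSL1, a membrane protein that binds actin, was at 1586 ± 296 and 1462 ± 186 CPM, and ABLIM1 at 289 ± 29.3 and 317 ± 27.8 CPM. Of 4 tropomyosins, which coat filaments, 2 were higher and 2 lower, with TPM4 at 249 ± 35.7 and 249 ± 11.8 CPM and TPM2 at 1.79 ± 0.437 and 1.67 ± 0.345 CPM.

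Of 12 capping and severing genes tested 7 were higher and 5 lower. CAPZB, the beta subunit of the protein that caps filament ends, was at 231 ± 32.0 and 217 ± 17.6 CPM, and TMOD1, with 45% of its exon bases overlapped on the other strand, at 0.398 ± 0.173 and 0.262 ± 0.107 CPM. Of 12 tested genes of the SRF and MRTF list, a transcription programme that responds to free actin, 2 were higher and 10 lower. The median of this list was -0.069, with 0.037 without CT replicate 2 and -0.024 with offsets for GC content and length. Its member ZYX, a focal adhesion protein, was at 206 ± 51.0 and 197 ± 23.4 CPM, and CNN1, a smooth muscle calponin, at 2.22 ± 1.04 and 1.77 ± 0.745 CPM.

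**Figure D4:**
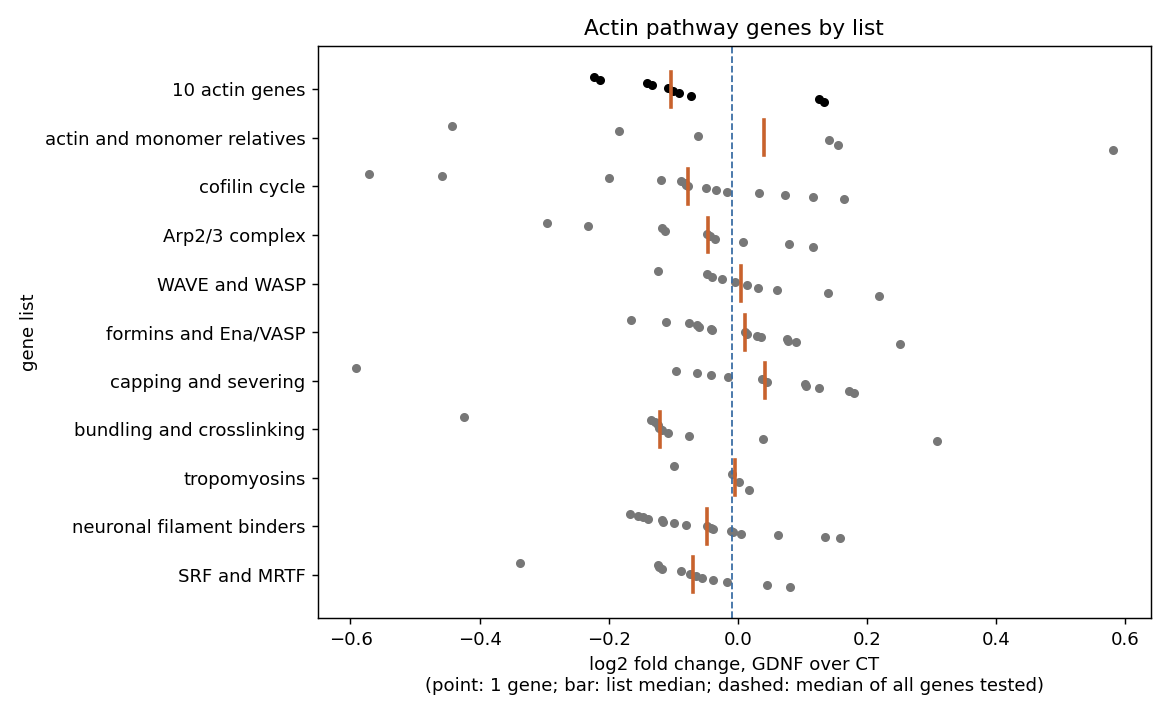
Log2 fold change (GDNF over CT) of each tested gene, by list described here, with the list median as a bar and the median of all 19999 genes (-0.0098) as a dashed line. The 10 actin genes have a median of -0.10, and the widest list, actin and monomer relatives, reaches 0.58 for PFN4.

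SRF acts through the CArG box, a short motif found upstream of several actin genes. Its strict form, CC and GG around a run of 6 letters that are each A or T, was sought on both strands in the 250 bases before the start of each gene in the RefSeq table (GRCh38.p14), which covers 8 of the 10 members. The box was in 1 of these 8, ACTG1, and in 407 of 35116 upstream regions of that length (1.16%). Its first base lies 94 bases before the RefSeq start, which lies inside the longer GENCODE span of ACTG1 given above. The stretch around it on the minus strand, chr17:81512844-81512933, is shown with the box in capitals.
ACTG1 upstream: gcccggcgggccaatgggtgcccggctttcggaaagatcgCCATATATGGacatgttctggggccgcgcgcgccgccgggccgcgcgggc
The match is a description of the letters in this window, and SRF binding was not measured. Forms of the box that differ by a base were not counted, so the search does not say that ACTA2 or another member lacks one.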

How the data were processed

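RNA was isolated from TRIzol extracts and made into polyA libraries with an Illumina TruSeq kit, per the labels' protocols. The authors deposited unnormalized counts of reads for each Ensembl gene. The tools named in the submitters' processing notes are STAR, HTSeq, cutadapt, FastQC and DESeq2, with the build GRCh38. The sources used here give no versions, annotation release, strand setting or treatment of multiply mapped reads. Of 58275 listed genes found in GENCODE 29, 98.7% had the same position there, the 10 members included, and that annotation gave lengths, GC content, overlaps and coding sequences. No row lacked a gene name.

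Counts were tested with edgeR 4.0.16 in R 4.3.3 (TMM factors, filterByExpr with minimum count 10 and minimum total 15, robust quasi-likelihood fit, group as the only term, two-sided, Benjamini-Hochberg over 19999 genes holding 99.9% of counts). Every adjusted p in the text comes from this edgeR fit, with 2 exceptions. Those of the ratios come from exact permutation tests of log2 ratios of counts adjusted over 4 pairs. The range given for PFN4 comes from the same edgeR fit repeated with each library left out. Levels are CPM, with library sizes scaled by TMM, and errors are SDs over the 4 libraries of a group. Depth was 28698283 to 34559240 counts, so precision for all members except ACTA2 is set by the spread between libraries. No 2 libraries agreed within sampling noise (chi-square per gene 2.61 to 152). GC and length offsets were smooth fits per library (natural splines, 5 degrees of freedom). The fits and the permutation test were tested on simulated data. Coding sequences were aligned with Biopython 1.88.

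The members, the gene lists, the markers and the alternatives were chosen with earlier results of these data known. Named were the 10 members and, in each other list, the gene with the highest CPM per kilobase and the gene with the smallest p; 1 of the lists counted in the total is not reported on its own here; for likeness, the 3 genes closest to ACTB, CFL1 and DBN1 each. COL1A1, TAGLN, MYH11, DES, MYH7, CKM and the muscle actins were named after their values were seen. So were, apart from TH, the single genes named from the dopaminergic neuron and progenitor lists. Alternatives were 3 other scalings, 2 other filters, DESeq2 1.42.0, limma 3.58.1 voom with quality weights, a replicate block, the offsets with and without the block, a pseudocount of 1 in the ratios and each library left out. The length of the principal transcript was added after the data were seen. ACTB and PFN2 have no upstream entry in the RefSeq table.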

Additional observations from a re-analysis of the deposited data

Results flagged for a closer look

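In each group of 4 libraries, a value was singled out when its gap to the nearest other library exceeded Dixon's critical share of the group's range at the 95% level. Of 70 groups examined 13 were singled out, where chance gives about 1 in 20, or 3.5, and 5 of the 13 concern CT replicate 2. The groups come from the same libraries, and some genes enter both a level and a ratio. The 13 are therefore not independent, and setting them against 3.5 is not a test.

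CT replicate 2 was low for CFL2, with 15.5 CPM against 48.9 to 52.6 in the other CT libraries, and for PFN2, with 207 CPM against 424 to 444. It was high for EVL, with 981 CPM against 618 to 651, for INF2, with 31.8 CPM against 19.2 to 19.9, and for the ratio of CFL1 to CFL2 counts, with 71.1 against 14.03 to 18.6. The deviation of this library by GC content is given in the report, and its part in each value was not tested gene by gene.

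CT replicate 3 was high for ACTA2, with 1.07 CPM (31 counts) against 0.441 to 0.532. GDNF replicate 4 was high for TMSB10, with 2326 CPM against 1950 to 2008, for the ratio of CFL1 to CFL2, with 24.6 against 15.5 to 15.96, and for the ratio of PFN1 to PFN2, with 0.286 against 0.199 to 0.211. GDNF replicate 3 was high for BRK1, with 114.8 CPM against 103.5 to 104.6, for INF2, with 22.4 CPM against 19.2 to 19.7, for TPM2, with 2.19 CPM against 1.46 to 1.52, and for the ratio of ACTB to ACTG1, with 0.944 against 0.920 to 0.924.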

How the results depend on the processing

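The count of genes past the threshold was 0 under all 18 alternatives, with 9 (mean of at least 5 CPM) to 1024 (no filter) at an unadjusted p below 0.05. ACTA2 has no value with a mean of at least 5 CPM. No scaling moved the median of all genes by more than 0.02. Same-numbered deviations from the group means correlated by 0.71, -0.64, 0.32 and -0.82 over 11820 genes, and those of CT replicate 2 and GDNF replicate 4 by 0.83. The libraries differ along GC content, which enters these correlations. They therefore do not say whether the numbers shared by the groups mark a pairing. With the replicate block 112 genes had an unadjusted p below 0.05 and 0 passed, and the ratio differences were 0.031, -0.38, -0.27 and -0.096 as without it (exact sign-flip permutation p 0.25 to 0.75). With so few libraries the sign-flip test cannot reach 0.05.

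Signs turned for small fold changes, and the cause was not tested. With GC and length offsets, without and with the block, they were 0.015 and 0.013 for ACTB, 0.018 and 0.022 for PFN1, -0.00105 and -0.00047 for ARPC2, 0.017 and 0.017 for EVL, 1.6e-05 and 0.0058 for TPM2 and 0.037 and 0.036 for ZYX, and -0.012 for TPM4 with offsets alone. With limma-voom they were -0.11 for CFL2, 0.012 for PFN1, -0.049 for PFN2, -0.021 for ARPC2, 0.057 for EVL, 0.0020 for INF2, -0.046 for TPM4, 0.018 for WDR1 and 0.062 for ZYX. With upper quartile scaling ARPC2 was at -0.012 and TPM4 at -0.013, and TMSB15A was at 0.041 with the block.

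With each library left out in turn the ranges were -0.15 to 0.038 for ACTB, -0.18 to 0.025 for ACTG1, -0.36 to 0.15 for ACTA2, -0.21 to 0.0087 for CFL1, -0.14 to 0.26 for CFL2, -0.17 to 0.021 for PFN1, -0.066 to 0.22 for PFN2, -0.23 to 0.049 for DBN1, -0.29 to -0.067 for TMSB10 and -0.16 to -0.053 for TMSB4X. Among the other named genes whose sign turned they were -0.018 to 0.044 for ARPC2, -0.11 to 0.018 for BRK1, -0.62 to 0.024 for CNN1, -0.13 to 0.13 for EVL, -0.20 to 0.069 for FSCN1, -0.24 to 0.049 for INF2, -0.19 to 0.014 for MARCKSL1, -0.31 to 0.087 for TMSB15A, -0.25 to 0.039 for TPM2, -0.086 to 0.072 for TPM4, -0.20 to 0.028 for WDR1 and -0.15 to 0.12 for ZYX. The ratio differences ranged from 0.013 to 0.042 for ACTB/ACTG1, -0.61 to 0.17 for CFL1/CFL2, -0.45 to 0.10 for PFN1/PFN2 and -0.17 to -0.010 for TMSB10/TMSB4X. Depth limits only ACTA2 among the members.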
